A study of Mus musculus with 30 samples.

Results

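The mitochondrial carrier family, encoded by the Slc25 genes, was followed through 30 RNA sequencing libraries of cultured mouse fetal testis. Members were the genes whose mouse symbol is Slc25a plus a number, which gave 47 of the 49315 genes in the files. The pseudogene Slc25a5-ps, with 0 to 7 counts in a library, was left out. Of the 47 members, 44 had enough counts to be tested. The other 3 were Slc25a2, a paralogue of the ornithine carrier, Slc25a41, which encodes an ATP-magnesium/phosphate carrier, and Slc25a54. No library held more than 14 counts of Slc25a2, 7 of Slc25a41 or 3 of Slc25a54. The uncoupling protein genes Ucp1, Ucp2 and Ucp3 encode proteins of the same family under other symbols, so they are not members here.

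Mitochondrial carriers are small proteins of the inner mitochondrial membrane that exchange metabolites between the matrix and the cytosol. Each moves a narrow set of substrates, such as ADP for ATP, phosphate, citrate, amino acids, acylcarnitines, cofactors or iron. They are made in the cytosol and inserted by a dedicated import route of small Tim chaperones and the TIM22 complex. In the testis, steroid-producing Leydig cells draw on mitochondria for the first step of hormone synthesis, and germ cells use an ADP/ATP carrier of their own, Slc25a31.

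Testes came from C57BL/6 male fetuses on gestational day 14, were dissected free of the mesonephros and were kept for 24 h on culture inserts. Every culture, controls included, received DMSO at a dilution of 1:4000. The groups were vehicle alone (n = 15), mono-(2-ethylhexyl) phthalate (MEHP) at 100 µM (n = 6), all-trans retinoic acid (ATRA) at 1 µM (n = 5) and MEHP + ATRA at the same doses (n = 4). MEHP is the monoester that forms when the plasticizer di-(2-ethylhexyl) phthalate is hydrolysed, and ATRA is the vitamin A acid that activates retinoic acid receptors. Sample titles carry a pair of numbers of unstated meaning, and the second lies either below 500 (lower range) or above it (upper range). The upper range held every MEHP library with 6 vehicle libraries, and the lower range held every ATRA and MEHP + ATRA library with 9 vehicle libraries. Each treatment was therefore set against vehicle with a term for the range in the model. The labels do not say that libraries of a group came from separate fetuses or litters, and p-values therefore reflect only library-to-library spread, which may be technical.

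Libraries held 17551454 to 29306917 counts in all, and Slc25 members took between 0.2206% and 0.2471% of them. The lowest and highest shares fell in the MEHP group and among upper-range vehicle libraries, and the 5 groups overlapped. Markers of the labelled tissue were present: summed CPM (counts scaled to library size) were 331 to 879 for 7 germ cell markers, 1660 to 3140 for 7 Sertoli cell markers and 1480 to 2410 for 5 Leydig cell markers. Summed markers stood at 4.33 to 15.9 CPM for mesonephros (4 genes) and at 1.05 to 12.3 CPM for brown fat and muscle (4 genes). These are whole-tissue libraries, so fewer cells of a type and less RNA per cell cannot be told apart.

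In vehicle cultures the ADP/ATP and phosphate carriers led the family. Levels are compared between genes as CPM per kilobase of exon, over all 15 vehicle libraries. Slc25a5, the widely expressed ADP/ATP carrier (chromosome X, 36795651 to 36798807), stood at 131 ± 11.8 CPM per kilobase (mean ± SD), and Slc25a4, the ADP/ATP carrier known from heart and muscle (chromosome 8, 46206797 to 46211284), at 123 ± 9.96. Their ranges over libraries overlapped, at 112 to 151 and 101 to 148. Slc25a3, which carries phosphate (chromosome 10, 91116574 to 91124059), followed at 73.3 ± 3.35, with a range of 66.6 to 80.3 that lay below both. These 3 genes held 42.2% of the family's summed level per kilobase. In CPM not divided by length the order was the reverse, with Slc25a3 at 407, Slc25a4 at 289 and Slc25a5 at 216. The division used all exon bases of the deposited gene table, 5550, 2353 and 1646 for these genes, which may exceed the expressed transcript. The order and shares per kilobase therefore depend on that length.

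The next 3 in this order did not separate. The citrate carrier gene Slc25a1 stood at 44.8 ± 4.02 CPM per kilobase, Slc25a39, which has been tied to mitochondrial glutathione import, at 42.5 ± 3.91, and the iron importer mitoferrin-2, Slc25a28, at 39.7 ± 2.04. Next by mean came the oxoglutarate carrier Slc25a11 at 37.2 ± 2.19, whose range of 33.5 to 41 overlapped all 3 of theirs. The peroxisomal cofactor carrier Slc25a17 followed at 26.2 ± 1.98. The germ cell ADP/ATP carrier Slc25a31 ranked 10th at 19.7 ± 4.94 and varied by 25.1% (coefficient of variation), against 4.57% for Slc25a3. At the low end of the tested members were Slc25a34 at 0.574 ± 0.102, the choline carrier gene Slc25a48 at 0.762 ± 0.181 and the oxodicarboxylate carrier gene Slc25a21 at 0.0855 ± 0.0401.

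**Figure D1:**
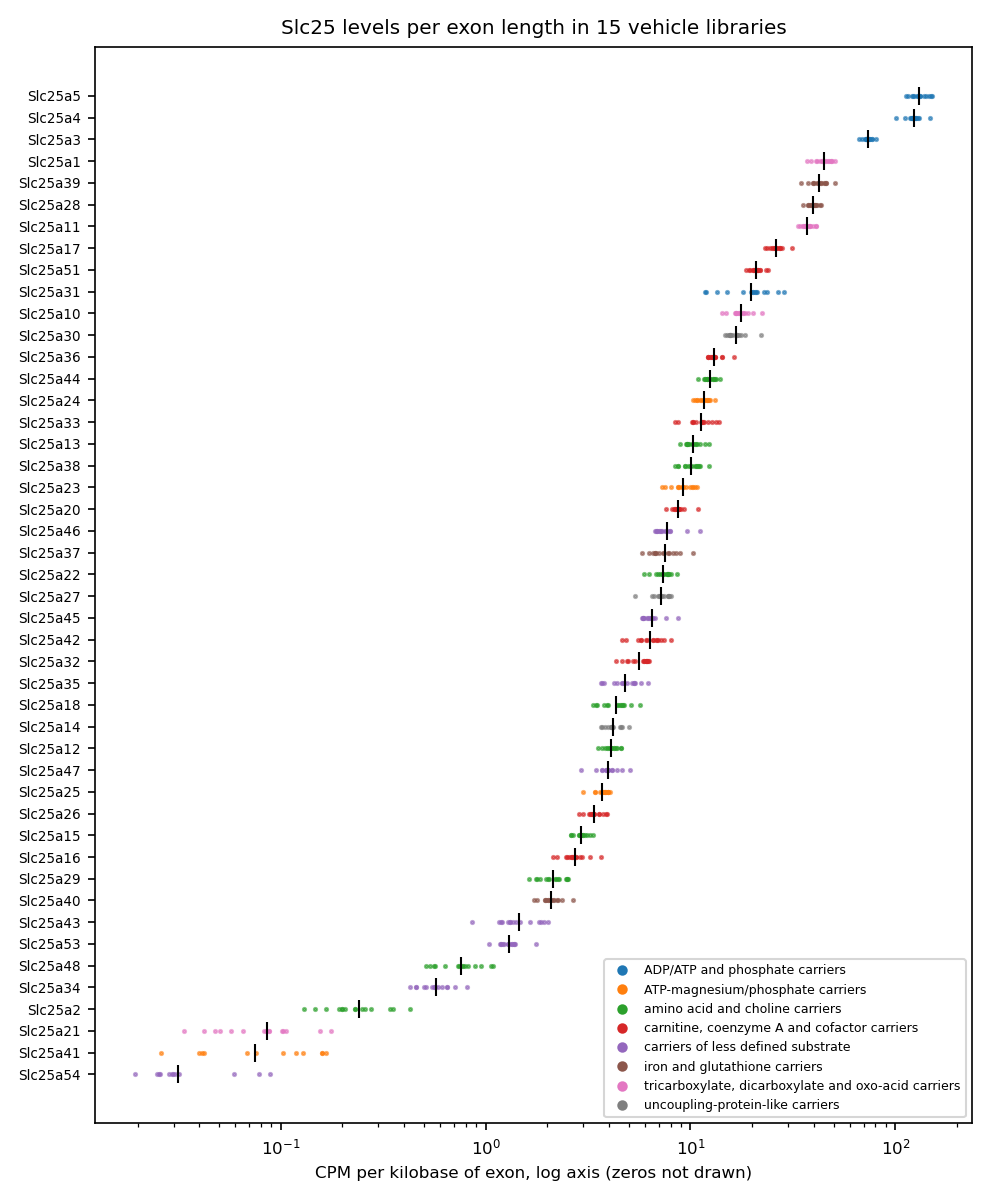
Level of 46 Slc25 members in vehicle cultures, in CPM per kilobase of exon on a log axis. Points are the 15 vehicle libraries, black ticks their mean, colours the transport role, and libraries at 0 are not drawn. The order runs from Slc25a5 at 131 to Slc25a54 at 0.0315.

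Slc25a34 and Slc25a20 were the members called higher in both groups that received MEHP, and Slc25a45 and Slc25a42 those called lower in all 3 treated groups. Their upstream sequences are given for that reason, although the size and stability of their changes differed, and Slc25a20 was a small change that the omission of single libraries ended. Each runs 5′ to 3′ on the gene's strand, from up to 250 bases before the RefSeq transcript start (GRCm38.p6), and stops before the first exon base of the deposited gene table. The stretches lie at chr4:141623835-141624084 (minus strand) for Slc25a34, chr9:108661886-108662087 (plus) for Slc25a20, chr19:5877572-5877807 (plus) for Slc25a45 and chr8:70212306-70212531 (minus) for Slc25a42. Capitals mark AGGTCA, the half-site read by many nuclear receptors, GGGCGG, the core of a GC box, and CCAAT, the core of a CCAAT box, on either strand.
Slc25a34: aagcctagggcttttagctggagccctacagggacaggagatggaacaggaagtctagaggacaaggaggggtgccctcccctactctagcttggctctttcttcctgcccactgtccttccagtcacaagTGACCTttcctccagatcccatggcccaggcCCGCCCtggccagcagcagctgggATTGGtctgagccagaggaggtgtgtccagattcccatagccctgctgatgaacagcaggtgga
Slc25a20: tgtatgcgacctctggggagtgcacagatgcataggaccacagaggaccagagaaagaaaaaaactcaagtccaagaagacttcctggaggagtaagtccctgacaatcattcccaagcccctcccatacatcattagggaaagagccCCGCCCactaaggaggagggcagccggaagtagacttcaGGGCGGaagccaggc
Slc25a45: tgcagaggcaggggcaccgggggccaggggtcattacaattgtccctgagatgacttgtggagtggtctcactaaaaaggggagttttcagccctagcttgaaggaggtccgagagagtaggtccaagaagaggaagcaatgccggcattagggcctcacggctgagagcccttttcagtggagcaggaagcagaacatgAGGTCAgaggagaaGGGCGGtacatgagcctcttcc
Slc25a42: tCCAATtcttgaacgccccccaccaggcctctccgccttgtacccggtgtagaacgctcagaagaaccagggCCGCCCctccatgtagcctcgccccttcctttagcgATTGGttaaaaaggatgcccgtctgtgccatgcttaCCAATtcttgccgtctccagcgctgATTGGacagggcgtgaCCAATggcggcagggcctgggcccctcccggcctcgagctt

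The Slc25a34 and Slc25a45 stretches each hold 1 AGGTCA, and those of Slc25a20 and Slc25a42 hold 0. GGGCGG occurs once in all but the Slc25a20 stretch, which has 2 copies. CCAAT occurs 5 times in the Slc25a42 stretch and once in that of Slc25a34. Promoter sequences were found for 36 members, with 46 alternative starts. Over 250 bases before the start, AGGTCA stood in 8.7% of the member promoters and in 14.0% of all 32851 promoters. Direct repeats of it spaced by 1 base (AGGTCANAGGTCA) stood in 0 member promoters and 0.0335% of all, and those spaced by 5 bases (AGGTCANNNNNAGGTCA) in 0 and 0.00913%. GGGCGG stood in 69.6% of member promoters against 32.7% of all, CCAAT in 45.7% against 33.8%, and TATAAA in 4.35% against 12.4%, all counted on both strands. Median GC content was 57.4% in the member windows and 52.4% in all. Alternative starts of 1 gene share sequence, so these shares are descriptions of the windows.

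MEHP raised Slc25a34 and Slc25a20 and lowered Slc25a45, Slc25a42, Slc25a35 and Slc25a38. That is 6 of 44 members tested, 2 higher and 4 lower, at an adjusted p under 0.05 (edgeR quasi-likelihood test), against 4.72% of all genes tested (2.88% higher, 1.84% lower). The median log2 fold change of the members was −0.029, beside −0.014 over all genes. The count of 6 was 3 without vehicle replicate 4, without vehicle replicate 14 or without MEHP replicate 4. Changes are given as log2 fold change ± SE, and levels as CPM after TMM scaling.

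Slc25a34 (chromosome 4, 141618824 to 141623821), a carrier whose substrate is not settled, had the largest change in the family. Upper-range vehicle libraries held 1.14 to 2.16 CPM with a median of 1.5, and MEHP libraries 3.79 to 6.92 CPM with a median of 5.70. All 6 MEHP libraries lay above all 6 of these vehicle libraries. The change was 1.85 ± 0.16 (adjusted p = 3.42e-09), from 1.53 ± 0.362 to 5.51 ± 1.15 CPM (SD), or 3.61 times the vehicle mean. The gene is weakly expressed, with 20 to 41 counts in upper-range vehicle libraries and 72 to 130 in MEHP libraries.

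Slc25a20 (chromosome 9, 108662088 to 108684641) encodes the carnitine/acylcarnitine carrier that brings fatty acids into the matrix for oxidation. It ranged from 40.3 to 45.3 CPM in upper-range vehicle libraries, with a median of 42.8, and from 45.7 to 53.3 CPM with MEHP, with a median of 51.0. The groups did not overlap, but the gap between them was narrow. Its rise was 0.23 ± 0.064 (adjusted p = 0.0304). Leaving out MEHP replicate 2, 3, 4 or 6 or vehicle replicate 4 or 14 ended this call (largest adjusted p = 0.0756). Other genes of the carnitine shuttle, from a list of 6, changed in the same group: the outer-membrane palmitoyltransferase genes Cpt1a (0.61 ± 0.070, adjusted p = 6.41e-07) and Cpt1b (0.85 ± 0.20, adjusted p = 0.00918) rose. The remaining 4 of that list did not pass.

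Slc25a45 (chromosome 19, 5877808 to 5885766), to which uptake of methylated amino acids has been ascribed, ranged from 15.5 to 23.0 CPM in upper-range vehicle libraries, with a median of 17.5. With MEHP it ranged from 9.67 to 14.9 CPM, with a median of 11. Every MEHP library lay below every upper-range vehicle library. It fell by 0.68 ± 0.11 (adjusted p = 6.35e-05).

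Slc25a42 (chromosome 8, 70184340 to 70212305) exchanges coenzyme A for adenine nucleotides. Upper-range vehicle libraries spread from 27.7 to 48.2 CPM around a median of 41.2, while MEHP libraries kept between 22.8 and 28.0 CPM around a median of 25.2. Of the 6 MEHP libraries, 5 lay below all 6 vehicle libraries and 1 lay just inside their range. It fell by 0.645 ± 0.10 (adjusted p = 0.000109).

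A further pair of falls was smaller and less stable. Slc25a35 (chromosome 11, 68968131 to 68974365), a close relative of Slc25a34, ranged from 13.4 to 22.7 CPM in upper-range vehicle libraries (median 19.4) and from 12.3 to 16.1 CPM with MEHP (median 14.7), with overlap. It changed by −0.38 ± 0.10 (adjusted p = 0.0236), a call lost without MEHP replicates 1 or 4 or vehicle replicates 4, 10, 11 or 14 (adjusted p up to 0.078) and with only MEHP and upper-range vehicle libraries fitted (0.135). On the opposite strand, Rangrf covers 31.3% of its exon bases. Rangrf averaged 0.314 CPM in vehicle, and whether counting used the strand is not stated in the sources used here. The mitochondrial glycine carrier gene Slc25a38 (chromosome 9, 120110374 to 120124504) ranged from 23.1 to 33.7 CPM in upper-range vehicle libraries (median 28.4) and from 18.5 to 28.2 CPM with MEHP (median 23.0). It changed by −0.30 ± 0.089 (adjusted p = 0.0465), and 22 of 30 fits that left out 1 library did not call it, with adjusted p values up to 0.134.

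Of the 4 ADP/ATP and phosphate carriers 0 were called with MEHP, beside 4.72% of all genes, a count too small to say anything particular to the role. Their 4 changes ran from −0.033 to 0.046, with Slc25a3 at 0.046 ± 0.044, Slc25a4 at −0.003 ± 0.066, Slc25a5 at 0.005 ± 0.074 and Slc25a31 at −0.033 ± 0.19. The citrate carrier gene Slc25a1 stood at 84.6 to 111 CPM in upper-range vehicle libraries and at 103 to 125 CPM with MEHP. Its change of 0.21 ± 0.065 missed the threshold (adjusted p = 0.0623), and it passed with DESeq2 (0.0386), without the range term (0.00263) and with a replicate block on the first title number, within range (0.00944) or over all libraries (0.0255). Among 9 genes of citrate export and use, Acly, which splits citrate in the cytosol (0.35 ± 0.053, adjusted p = 5.44e-05), and Fasn, the fatty acid synthase gene (0.34 ± 0.093, adjusted p = 0.025), rose, while the mitochondrial malic enzyme gene Me2 changed by −0.28 ± 0.083 (adjusted p = 0.0439). The dicarboxylate carrier gene Slc25a10 (−0.11 ± 0.084, adjusted p = 0.635) and the mitoferrin-1 gene Slc25a37 (−0.057 ± 0.13, adjusted p = 0.907) did not pass. Slc25a48 had a large but imprecise value, −0.76 ± 0.24 (adjusted p = 0.0717), with 5 of 6 MEHP libraries below all 6 upper-range vehicle libraries.

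Some cell type markers were also called with MEHP, beside 4.72% of all genes tested (2.88% higher, 1.84% lower). By their counts, lists this short say nothing particular to a cell type. Of 6 endothelial markers, 4 rose and 0 fell, and their summed level was 177 to 321 CPM with MEHP against 166 to 277 CPM in upper-range vehicle libraries. Of 7 Sertoli cell markers, 3 rose and 1, Amh, fell, with sums of 1910 to 2670 and 2070 to 3140 CPM. Of 4 myoid markers, 1 fell (sums of 231 to 272 against 244 to 358 CPM), as did 1 of 3 tested brown fat and muscle markers (1.05 to 8.30 against 2.17 to 12.3 CPM). Of 2 tested adrenal markers 1 fell, and the sums of the 3 listed lay apart, at 0.843 to 1.81 CPM with MEHP and 1.9 to 3.02 CPM in vehicle. Their part in the carrier results was not tested.

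**Figure D2:**
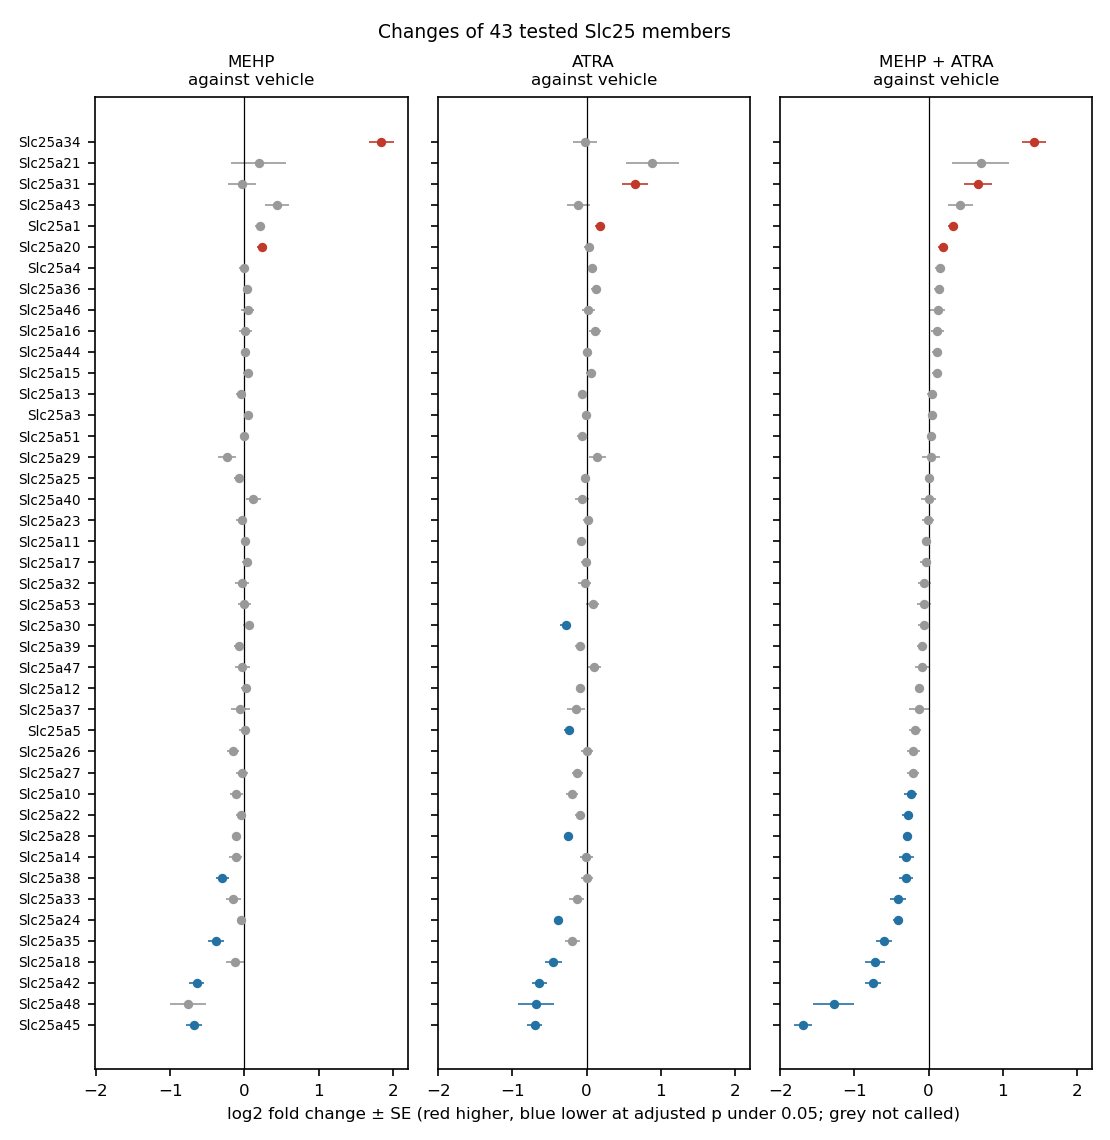
Log2 fold change ± SE of 43 tested Slc25 members in the 3 treated groups against vehicle, in 1 order for all panels, set by MEHP + ATRA. Red points were higher and blue points lower at an adjusted p under 0.05, and grey points were not called. Slc25a34 stands apart at 1.85 with MEHP and 1.42 with MEHP + ATRA, and Slc25a45 reaches −1.69 with MEHP + ATRA.

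ATRA raised Slc25a31 and Slc25a1 and lowered 8 members: Slc25a45, Slc25a48, Slc25a42, Slc25a18, Slc25a24, Slc25a30, Slc25a28 and Slc25a5. Those 10 of 44 compare with 18.1% of all genes tested (9.06% higher, 9.03% lower). The median over members was −0.024, and over all genes 0.

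Slc25a45 fell by 0.70 ± 0.10 (adjusted p = 5.87e-06). The 5 ATRA libraries held 12.9, 9.42, 10.9, 8.41 and 8.11 CPM, all below the lower-range vehicle libraries at 15.4 to 17.4 CPM (median 16.3, n = 9). Slc25a42 had 21.8, 24.4, 24.0, 24.0 and 24.6 CPM with ATRA, against 29 to 41.4 CPM in lower-range vehicle libraries (median 36.8). Again no ATRA library reached the vehicle range, and the change was −0.635 ± 0.10 (adjusted p = 1.97e-05).

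The ATP-magnesium/phosphate carrier gene Slc25a24 (chromosome 3, 109123149 to 109168457), whose product is regulated by calcium and sets the matrix pool of adenine nucleotides, changed with ATRA but was not called with MEHP. Its levels were 28.7, 29.8, 32.0, 33.5 and 31.9 CPM with ATRA and 38.1 to 45.2 CPM in lower-range vehicle libraries (median 40.3). The groups did not overlap, and the gene fell by 0.39 ± 0.053 (adjusted p = 1.44e-06). The related genes Slc25a23 (0.019 ± 0.072) and Slc25a25 (−0.022 ± 0.053) did not pass. Whether the ATRA and MEHP effects on Slc25a24 differ was not tested directly.

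Of the 9 tested amino acid and choline carriers, 2 fell and 0 rose with ATRA, beside 9.03% of all genes lower and 9.06% higher. Slc25a18, a mitochondrial glutamate carrier gene (chromosome 6, 120773578 to 120794336), held 6.15, 6.06, 6.30, 6.36 and 5.0 CPM with ATRA and 6.64 to 9.81 CPM in lower-range vehicle libraries (median 8.66). All ATRA libraries lay below this range, and the change was −0.446 ± 0.12 (adjusted p = 0.00756). Slc25a48 (chromosome 13, 56438355 to 56474239) stood at 1.07, 1.66, 1.28, 1.69 and 1.42 CPM, against 1.73 to 3.01 CPM (median 2.13). Its groups also did not overlap, but at 26 to 38 counts a library the change of −0.68 ± 0.24 (adjusted p = 0.0489) failed in 15 of 30 fits that omitted a library (largest adjusted p = 0.13) and with no filter on low counts (0.0802).

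Among iron and glutathione carriers, only mitoferrin-2 was called with ATRA, 1 of 4, beside the same 18.1% of all genes in either direction, and counts this small say nothing particular to a role. Slc25a28 (chromosome 19, 43663822 to 43674881) had 50.1, 47.8, 52.2, 50.9 and 48.6 CPM with ATRA, below all lower-range vehicle libraries at 56.8 to 62.6 CPM (median 59.8). It fell by 0.25 ± 0.042 (adjusted p = 3.1e-05), a small change measured precisely. Slc25a37 was at 31.5 to 47.6 CPM with ATRA and 34.8 to 51.1 CPM in lower-range vehicle libraries (−0.145 ± 0.12, adjusted p = 0.51).

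Slc25a30, grouped with the uncoupling proteins by sequence (chromosome 14, 75761999 to 75787037), held 25.0, 21.7, 21.6, 22.1 and 22.1 CPM with ATRA and 25.1 to 30 CPM in lower-range vehicle libraries (median 26.7). The highest ATRA library came within 0.1 CPM of the vehicle range without entering it. It changed by −0.28 ± 0.069 (adjusted p = 0.00309). With MEHP + ATRA the same gene stood at 28.8, 23.5, 25.5 and 26.7 CPM and was not called (−0.069 ± 0.073, adjusted p = 0.539).

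The 2 members that rose with ATRA overlapped their vehicle groups. Slc25a31 (chromosome 3, 40708855 to 40726096) held 70.2, 84.3, 52.2, 71.4 and 75.8 CPM with ATRA, and 25.2 to 60.7 CPM in lower-range vehicle libraries (median 44.6). Of the 5 ATRA libraries, 4 lay above all 9 vehicle libraries, and the rise was 0.66 ± 0.18 (adjusted p = 0.00744). Slc25a1 (chromosome 16, 17925211 to 17928219) held 103, 113, 114, 114 and 98.2 CPM, against 80.6 to 107 CPM (median 95.7). Its rise of 0.18 ± 0.063 (adjusted p = 0.0445) failed in 10 of 30 fits that omitted a library (largest adjusted p = 0.122), without the range term (0.0522) and with no filter on low counts (0.0927). With a replicate block on the first title number it was also lost, at 0.119 within range (adjusted p = 0.105) and 0.144 over all libraries (adjusted p = 0.0699). Slc25a5 had 179, 178, 189, 192 and 158 CPM, against 185 to 233 CPM (median 215), with a change of −0.235 ± 0.072 (adjusted p = 0.0203) that was lost without ATRA replicate 5 (0.0838).

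Slc25a34 and Slc25a20 showed no call with ATRA. Slc25a34 stood at 1.56, 1.05, 1.31, 2.0 and 1.74 CPM, inside or near the 1.22 to 1.90 CPM of lower-range vehicle libraries (−0.018 ± 0.16, adjusted p = 0.964). Slc25a20 had 0.030 ± 0.062 (adjusted p = 0.828), Slc25a35 −0.19 ± 0.099 (adjusted p = 0.211) and Slc25a38 0.006 ± 0.085 (adjusted p = 0.981). Slc25a3 (−0.012 ± 0.043) and Slc25a4 (0.079 ± 0.064) did not pass. The value of Slc25a10 was −0.20 ± 0.081 (adjusted p = 0.0861). It passed with limma-voom (0.01), with only ATRA and lower-range vehicle libraries fitted (0.0214) and without the range term (0.0152). It also passed with a replicate block on the first title number, within range (0.0157) or over all libraries (0.0317).

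Marker counts with ATRA stand beside 18.1% of all genes called (9.06% higher, 9.03% lower). Here too, counts from such short lists say nothing particular to a cell type. Of 7 Sertoli cell markers 5 rose and 1, Amh, fell. Their summed levels were 2050 to 2390 CPM, against 1660 to 2540 CPM in lower-range vehicle libraries. Of 5 interstitial progenitor markers 0 rose and 2 fell, among them Pdgfra, and the sums did not overlap (1720 to 1870 against 2110 to 2290 CPM). Of 4 mesonephros markers 2 rose, among them Pax2, and the sums of all 4 lay apart (12.4 to 13.4 against 4.33 to 9.91 CPM). Of 2 tested adrenal markers 1 rose, with sums of the 3 listed at 3.02 to 6.44 against 1.73 to 2.80 CPM, also apart. Of 4 myoid markers 1 fell (294 to 340 against 260 to 356 CPM), and 1 of 5 Leydig cell markers (1580 to 1900 against 1620 to 1950 CPM) and 1 of 6 endothelial markers (168 to 251 against 169 to 266 CPM) rose. Their part in the carrier results was not tested.

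MEHP + ATRA changed 16 of 44 members, 4 higher and 12 lower, against 29% of all genes tested (14.3% higher, 14.7% lower). The members' median was −0.05 and that of all genes −0.014. Slc25a34, Slc25a31, Slc25a1 and Slc25a20 rose. Slc25a45, Slc25a48, Slc25a42, Slc25a18, Slc25a35, Slc25a24, Slc25a33, Slc25a38, Slc25a14, Slc25a28, Slc25a22 and Slc25a10 fell. Of the 16, 4 were called with neither compound alone. The like share of all genes was not counted, so nothing particular to the family can be read from these 4.

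Slc25a45 reached its lowest level in this group. The 4 libraries held 4.66, 5.73, 4.64 and 5.05 CPM, against 15.4 to 17.4 CPM in lower-range vehicle libraries and 8.11 to 12.9 CPM with ATRA. The groups did not overlap in either comparison. The fall was 1.69 ± 0.12 (adjusted p = 1.91e-12), to 0.309 times the vehicle mean.

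Slc25a34 held 4.27, 3.68, 4.32 and 4.24 CPM with both compounds, all above the lower-range vehicle libraries at 1.22 to 1.90 CPM. Its rise was 1.42 ± 0.16 (adjusted p = 1.82e-08). Slc25a48 held 1.34, 0.512, 0.495 and 1.34 CPM, with 11 to 33 counts a library, and fell by 1.28 ± 0.28 (adjusted p = 0.000545). These libraries split into a higher and a lower pair, and both pairs lay below all vehicle libraries. Slc25a42 held 20.8, 26.6, 19.1 and 21.4 CPM and changed by −0.75 ± 0.11 (adjusted p = 3.05e-06).

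Of the 9 tested amino acid and choline carriers, 4 fell and 0 rose with both compounds, beside 14.7% of all genes lower and 14.3% higher. Slc25a48, above, is among the 4. Slc25a18 held 6.04, 4.10, 4.64 and 4.93 CPM (−0.725 ± 0.13, adjusted p = 6.98e-05), below all lower-range vehicle libraries. Slc25a22, the more widely expressed glutamate carrier gene (chromosome 7, 141429744 to 141437892), stood at 34.4 to 38.9 CPM against 37.8 to 51.6 CPM, with a change of −0.285 ± 0.071 (adjusted p = 0.00242). Slc25a22 was not called with MEHP (−0.05 ± 0.068) or with ATRA (−0.092 ± 0.065). The aspartate/glutamate carrier genes Slc25a12 (−0.13 ± 0.058, adjusted p = 0.104) and Slc25a13 (0.042 ± 0.064, adjusted p = 0.683) did not pass.

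Slc25a35 held 11.9, 11.2, 11.6 and 9.77 CPM, below all lower-range vehicle libraries (13.6 to 19.8 CPM) and below all ATRA libraries (14.2 to 16.1 CPM). It fell by 0.60 ± 0.11 (adjusted p = 6.18e-05). Slc25a24 held 29.5, 30, 30.3 and 32.3 CPM (−0.42 ± 0.057, adjusted p = 8.36e-07), and its difference from ATRA alone was −0.029 ± 0.063. Slc25a28 followed the same order, at 45.6 to 50.9 CPM and −0.297 ± 0.045 (adjusted p = 4.86e-06). The pyrimidine nucleotide carrier gene Slc25a33 (chromosome 4, 149744036 to 149774277) held 16.3, 17.1, 16.9 and 17.1 CPM against 19.1 to 25.9 CPM (−0.41 ± 0.11, adjusted p = 0.00462). Gm13068 covers 14.9% of its exon bases on the opposite strand and was at 0.394 CPM in vehicle.

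Slc25a1 held 130, 123, 117 and 114 CPM, above all 9 lower-range vehicle libraries (80.6 to 107 CPM), and rose by 0.33 ± 0.067 (adjusted p = 0.000237). Slc25a31 held 54.4, 88.7, 73.7 and 68.3 CPM, with 3 of 4 libraries above that vehicle range, and rose by 0.67 ± 0.19 (adjusted p = 0.0071). Slc25a20 held 47.2, 46.1, 51.9 and 47.9 CPM. Its vehicle group spread from 36.6 to 52.7 CPM (median 41.7), so the groups overlapped, and the rise of 0.198 ± 0.066 (adjusted p = 0.022) was lost without MEHP + ATRA replicate 3 (0.0986) and with a replicate block within range (0.0673).

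A further 3 falls each depended on 1 or more libraries. Slc25a38 held 25.2, 18.7, 23.0 and 21.5 CPM (−0.30 ± 0.093, adjusted p = 0.0129), a call that ended when MEHP + ATRA replicate 2 was omitted (0.0949). Slc25a14, a gene of the uncoupling-protein-like group, had −0.299 ± 0.095 (adjusted p = 0.0161), lost without MEHP + ATRA replicates 1 or 3 (adjusted p up to 0.0954). Slc25a10 held 61.0, 46.1, 48.3 and 41.4 CPM (−0.24 ± 0.088, adjusted p = 0.0356), and this call failed without MEHP + ATRA replicate 2, 3 or 4 or vehicle replicate 7, 8, 13 or 15 (largest adjusted p = 0.226).

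The most abundant carriers did not pass with MEHP + ATRA in the main model. Slc25a3 had 0.040 ± 0.046 (adjusted p = 0.577). Slc25a4 had 0.15 ± 0.068 (adjusted p = 0.102) and Slc25a5 −0.18 ± 0.078 (adjusted p = 0.0815). Both passed with limma-voom (0.00461 and 0.041) and without the range term (0.0456 and 0.0248). Slc25a4 also passed with matched libraries only (0.00954) and with a replicate block over all libraries (0.0282). Slc25a37 was at 29.8 to 54.8 CPM (−0.13 ± 0.13, adjusted p = 0.5).

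Marker counts with MEHP + ATRA stand beside 29% of all genes called (14.3% higher, 14.7% lower), and again say nothing particular to a cell type. Of 7 Sertoli cell markers 5 rose and 1 fell (sums of 1950 to 2540 against 1660 to 2540 CPM in lower-range vehicle libraries), of 5 interstitial progenitor markers 2 fell (1560 to 1740 against 2110 to 2290 CPM), and of 7 germ cell markers 3 fell (470 to 668 against 497 to 879 CPM). The germ cell genes that fell were Nanos2, Nanos3 and Dnd1. Of 4 mesonephros markers 2 rose (13.2 to 15.9 against 4.33 to 9.91 CPM), and of 4 myoid markers 2 fell (249 to 317 against 260 to 356 CPM). Further calls were 1 of 5 Leydig cell markers (1480 to 2260 against 1620 to 1950 CPM) and 1 of 6 endothelial markers (225 to 272 against 169 to 266 CPM) higher, and 1 of 3 tested brown fat and muscle markers (2.89 to 3.20 against 2.74 to 10.7 CPM) and 1 of 2 tested adrenal markers (1.91 to 2.98 against 1.73 to 2.80 CPM) lower. Their part in the carrier results was not tested.

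**Figure D3:**
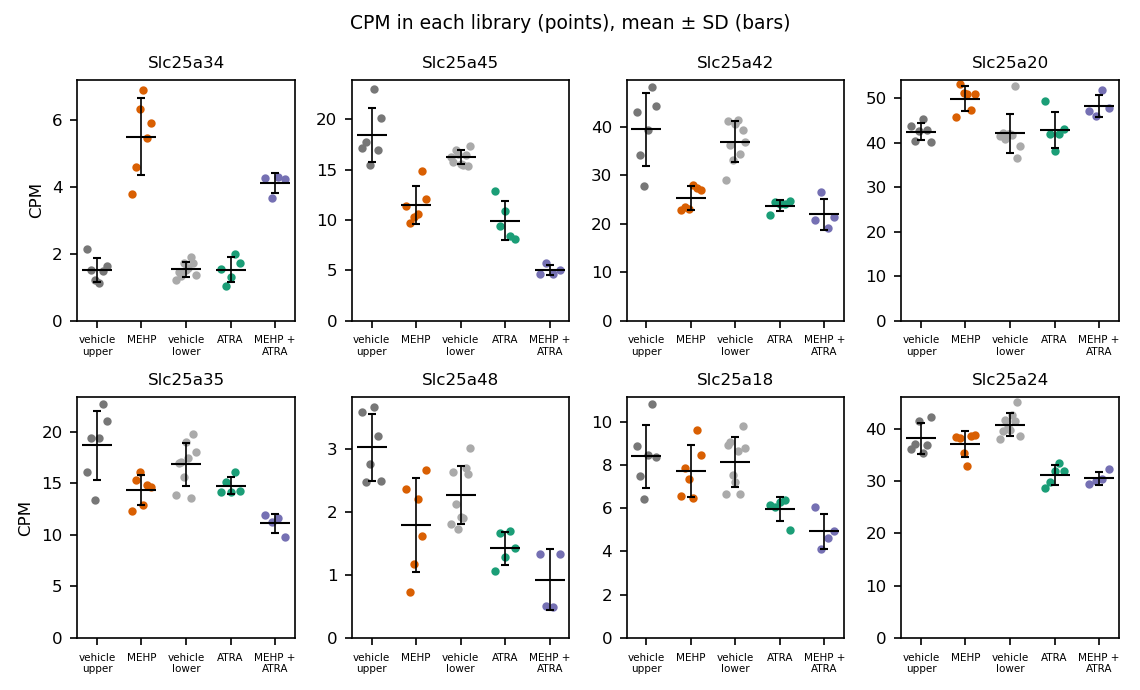
CPM of 8 Slc25 members in every library, by group, with the mean ± SD as bars. Slc25a34 is raised in both groups with MEHP, and Slc25a45 falls from means of 16.2 and 18.4 in the vehicle groups to 5.02 with MEHP + ATRA.

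The number of members whose libraries did not overlap with those of the matching vehicle range was 2 above and 1 below with MEHP, against 1.84% of all genes tested (1.2% above, 0.637% below). With ATRA it was 0 above and 7 below, against 9.49% (4.95% above, 4.54% below), and with MEHP + ATRA 2 above and 8 below, against 17.6% (9.14% above, 8.5% below). Slc25a45 was the only member below its vehicle group in all 3 comparisons. The ATRA and MEHP + ATRA comparisons share the 9 lower-range vehicle libraries.

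Adding MEHP to ATRA was compared within the lower range, MEHP + ATRA against ATRA. Of 44 members 2 were called, against 3% of all genes (1.62% higher, 1.38% lower): Slc25a34 was higher by 1.44 ± 0.18 (adjusted p = 9.01e-06) and Slc25a45 was lower (−0.99 ± 0.13, adjusted p = 1.61e-05). Slc25a20 (0.169, adjusted p = 0.293) and Slc25a42 (−0.115, adjusted p = 0.769) were not called here, but Slc25a20 passed with limma-voom (0.0267). Slc25a1 had 0.154 ± 0.075 (adjusted p = 0.376), and it passed with a replicate block on the first title number, within range (0.0161) or over all libraries (0.0408). Slc25a35 missed the threshold at −0.41 ± 0.12 (adjusted p = 0.0555), although its 4 co-exposed libraries lay below all 5 ATRA libraries. It passed with DESeq2 (0.0287), limma-voom (0.00188), matched libraries only (0.0203) and a filter at a mean CPM of 1 (0.0442). Slc25a43, an uncharacterised carrier gene, held 4.06, 3.35, 3.29 and 2.93 CPM, above the ATRA libraries at 1.79 to 2.84 CPM, and was not called (0.54 ± 0.19, adjusted p = 0.134). In all, 2 members lay above and 5 below the ATRA libraries without overlap, against 7.15% of all genes (3.6% above, 3.54% below).

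Adding ATRA to MEHP was compared across the ranges, which rests on the range term. Of 44 members 3 were called and all were lower, against 8.29% of all genes (4.23% lower): Slc25a45 (−1.01 ± 0.16, adjusted p = 4.38e-05), Slc25a24 (−0.38 ± 0.078, adjusted p = 0.00161) and Slc25a18 (−0.60 ± 0.18, adjusted p = 0.0317). The call of Slc25a18 failed in 8 of 30 fits that omitted a library (largest adjusted p = 0.0936). Slc25a31 had 0.70 ± 0.27 (adjusted p = 0.121), and Slc25a34 −0.43 ± 0.23 (adjusted p = 0.315). Slc25a31 passed with limma-voom (0.0228), without the range term (0.00119) and with a replicate block within range (0.0213).

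Whether the MEHP effect differed with ATRA present was tested as an interaction. The effect without ATRA was measured only in the upper range and the effect with ATRA only in the lower range. A difference due to ATRA and a difference due to range therefore cannot be told apart here. No member was called by edgeR (0 of 44, against 0.0311% of all genes). An unadjusted p under 0.05 was found for 1 of 44 members and for 827 of all 19323 genes. DESeq2 and limma-voom also called 0. That 1 was Slc25a42, whose value was 0.53 ± 0.16 (unadjusted p = 0.00231, adjusted p = 0.488). Its log2 changes against vehicle were −0.645 with MEHP, −0.635 with ATRA and −0.75 with both. The interaction of Slc25a45 was −0.312 ± 0.17 (adjusted p = 1), with changes of −0.68, −0.70 and −1.69, and that of Slc25a34 was −0.41 ± 0.245 (adjusted p = 1). These p values do not show that interactions were absent.

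Slc25a31 was set beside germ cell markers because it is known as a germ cell carrier. Which cells held it in these whole-tissue libraries was not tested. As a share of the summed level of 7 germ cell markers it was 5.81% to 9.57% in upper-range vehicle libraries, 6.69% to 9.79% with MEHP and 5.07% to 8.09% in lower-range vehicle libraries. With ATRA the share was 8.84% to 11.7%, and with MEHP + ATRA 11.6% to 13.3%, both above every lower-range vehicle library. The marker sum itself was 591 to 756 CPM with ATRA, inside the 497 to 879 CPM of lower-range vehicle libraries. Of the 7 markers, 1 fell and 0 rose with ATRA, and 3 fell and 0 rose with MEHP + ATRA. Of all genes tested, 9.03% and 14.7% fell in these comparisons. The falls of the markers are part of the sum.

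**Figure D4:**
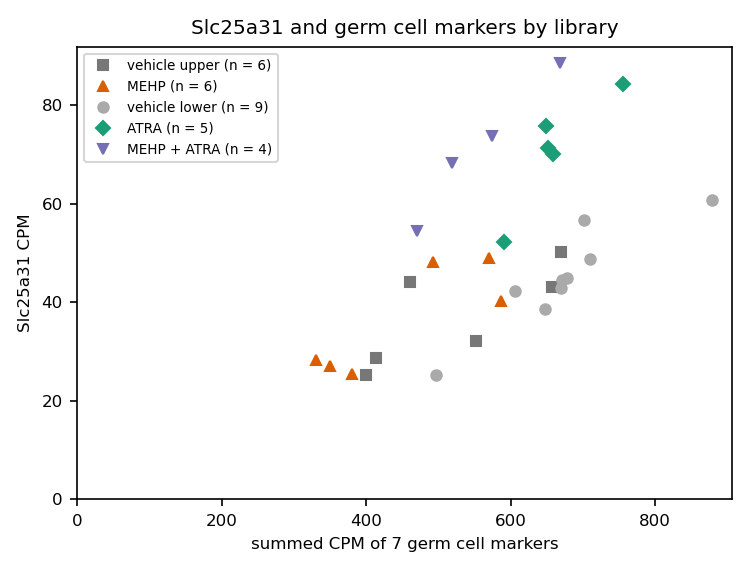
Slc25a31 (CPM, vertical axis) against the summed CPM of 7 germ cell markers (horizontal axis), with 1 point for each of the 30 libraries and symbols for the groups. ATRA and MEHP + ATRA libraries lie above vehicle libraries of a like marker sum.

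The other 26 tested members were called in none of the treatment comparisons. They include the carriers of NAD (Slc25a51), folate (Slc25a32), S-adenosylmethionine (Slc25a26), ornithine (Slc25a15), basic amino acids (Slc25a29) and branched-chain amino acids (Slc25a44). Their changes ran from −0.234 (Slc25a29) to 0.441 (Slc25a43) with MEHP, from −0.145 (Slc25a37) to 0.887 (Slc25a21) with ATRA and from −0.215 (Slc25a27) to 0.701 (Slc25a21) with MEHP + ATRA. Slc25a21 rests on 2 to 22 counts a library, and its SE was 0.352 or more. Slc25a43 held 2.33 to 3.32 CPM in upper-range vehicle libraries (median 2.47) and 3.26 to 4.34 CPM with MEHP (median 3.66), a difference that missed the threshold (adjusted p = 0.138).

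In vehicle cultures the number range made no called difference to any member. Of 44 members 0 were called between upper and lower range by edgeR, against 0.373% of all genes, and DESeq2 and limma-voom also called 0. An unadjusted p under 0.05 was found for 6 of 44 members and for 2607 of all 19323 genes, a like share.

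Genes that work with the carriers were counted in the same fit. Their counts stand beside the shares of all genes called in either direction, which were 4.72% for MEHP, 18.1% for ATRA and 29% for the co-exposure, and with 4 to 16 genes a list they say nothing particular to a list. Of 16 genes of the carrier import route 0 were called with MEHP and 0 with ATRA. An unadjusted p under 0.05 was found for 2 and 1 of them, against 2865 and 5387 of all 19323 genes. With MEHP + ATRA 1, the small Tim chaperone gene Timm10, fell (−0.186 ± 0.070, adjusted p = 0.0453). Among 13 tested genes for mitochondrial membrane proteins of other families or symbols, 1 rose with MEHP, Ucp2 (0.34 ± 0.072, adjusted p = 0.00297), from 211 ± 19.1 to 267 ± 15.3 CPM. With ATRA 3 rose and 2 fell: the serine transporter gene Sfxn1 (0.55 ± 0.077, adjusted p = 2.67e-06), the pyruvate carrier subunit gene Mpc1 and Sfxn5 rose, and Sfxn3 and Mtch1 fell. With MEHP + ATRA 5 rose and 3 fell, with Sfxn1 at 0.82 ± 0.081 (adjusted p = 2.15e-09) and Ucp2 at 0.46 ± 0.074 (adjusted p = 1.1e-05). Ucp1, the brown fat uncoupling protein gene, had at most 9 counts in a library and was not tested.

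In the carnitine shuttle list, MEHP + ATRA raised Cpt1a (0.60 ± 0.071, adjusted p = 7.18e-08) and the carnitine importer gene Slc22a5 (0.29 ± 0.076, adjusted p = 0.00429) and lowered Cpt2 and Cpt1c, while ATRA alone called 0 of 6. In the citrate list of 9, 2 rose with ATRA (Fasn and Acaca), and with MEHP + ATRA 4 rose (Fasn, Idh1, Acaca and Acly) and 1, Me2, fell. Fasn stood at 0.63 ± 0.094 there (adjusted p = 3.27e-06). Of 11 genes of heme and iron-sulfur cluster synthesis, the pathways that mitoferrins supply with iron, 0 were called with MEHP, 1 rose and 1 fell with ATRA, and 3 rose and 1 fell with MEHP + ATRA, among them Alas1, the first enzyme of heme synthesis (0.46 ± 0.059, adjusted p = 2.85e-07). Of 9 mitochondrial one-carbon genes, 0 were called with MEHP, 2 fell with ATRA, and 2 rose and 2 fell with MEHP + ATRA, with Mthfd2 at 0.58 ± 0.10 (adjusted p = 4.53e-05). Of 4 enzymes of the malate-aspartate shuttle, 1 fell with ATRA (Got1) and 1 rose with MEHP + ATRA (Mdh1). No gene of these lists was called for the interaction by edgeR. The 6 with an unadjusted p under 0.05 were 4 of 9 one-carbon genes, 1 of 11 heme and iron-sulfur genes and 1 of the 13 membrane protein genes. Over all genes it was 827 of 19323.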

How the data were processed

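RNA was sequenced from 30 cultured fetal testis samples, after oligo(dT) enrichment of mRNA (NEBNext Ultra II, per the labels' protocols). Each deposited file holds 1 library's unnormalized counts in featureCounts layout, per the file headers. The submitters' processing notes name bcl2fastq 2.20, Trimmomatic 0.36, STAR 2.5.2b, featureCounts of Subread 1.5.2 and DESeq2. Build, annotation release, and strand and multi-mapping settings are not stated there. Reads shared with pseudogenes or antisense genes may therefore be split or merged. Gene symbols were found for 99.3% of identifiers, and 38 of 47 members had the coordinates of GENCODE M21 (GRCm38). Promoter sequences are from RefSeq.

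Counts were fitted in edgeR 4.0.16 (R 4.3.3) with filterByExpr (minimum count 10; 19323 genes), TMM scaling (factors 0.975 to 1.023) and 1 quasi-likelihood model over all 30 libraries, with group and title-number range (25 residual degrees of freedom). F tests were two-sided and adjusted by Benjamini-Hochberg over all genes tested, at 0.05. Contrasts set treated groups against vehicle, the co-exposure against each compound alone, and the ranges against each other within vehicle, and tested the interaction. Standard errors came from the F statistic. The model was tested on simulated counts. Alternatives were other size factors, DESeq2 1.42.0, limma-voom (limma 3.58.1), other filters, no range term, matched libraries only, blocks on the first title number, and leaving out each library.

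Values are given per library for members called in a treatment comparison (up to 8 with the largest change in each) and for a panel of 11 members whatever their result. The members, the lists and this rule were chosen with earlier results of these data known. Same-numbered libraries (first title number) had deviations correlated at −0.13 to 0.78 (29 pairs, median 0.14, 17 over 0.1), and libraries with other numbers at −0.51 to 0.45 (108 pairs, median −0.02, 20 over 0.1). The labels do not explain the number, so the main model holds no block for it, and its p-values leave this correlation out. Refits with such a block are given in the section on processing below. No libraries were identical. Of the members, 1 is counted but its values are not reported here.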

Additional observations from a re-analysis of the deposited data

Results flagged for a closer look

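Of 90 sets of libraries examined (18 members in 5 groups), 7 held a library that stood apart by Dixon's criterion, where chance gives about 1 in 20. Slc25a3 was lowest in MEHP replicate 4, at 385 CPM with the next at 427. MEHP + ATRA replicate 2 was the lowest of its group for Slc25a4 (293 CPM, next 332) and for Slc25a34 (3.68 CPM, next 4.24). Slc25a18 was lowest in ATRA replicate 5 (5.0 CPM, next 6.06). ATRA replicate 1 was the highest of its group for Slc25a30 (25.0 CPM, next 22.1) and the lowest for Slc25a42 (21.8 CPM, next 24.0). Slc25a20 was highest in vehicle replicate 12 of the lower range, at 52.7 CPM with the next at 42.2. The calls of Slc25a34, Slc25a18, Slc25a30 and Slc25a42 in these comparisons held without the library named, and Slc25a20 with MEHP + ATRA was also called without vehicle replicate 12.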

How the results depend on the processing

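No called member changed direction under the alternatives run. Of 1440 refits of the 37 called results, 1346 stayed past the threshold and 94 did not. Of 2335 refits of 61 uncalled panel results, 43 passed. Counts of called members for MEHP + ATRA against ATRA were 2 as reported, 9 with limma-voom and sample weights and 4 with matched libraries only. For MEHP + ATRA against MEHP they were 3 as reported, 5 with limma-voom and 11 without the range term. Without the range term, MEHP + ATRA against MEHP also takes in the difference between the ranges, because the 2 groups lie in different ranges. The causes of these shifts were not tested. Leaving out each library in turn gave 3 to 7 members for MEHP, 8 to 11 for ATRA, 14 to 19 for MEHP + ATRA, 2 to 3 for MEHP + ATRA against ATRA, 2 to 4 against MEHP, and 0 for the interaction and the range. A replicate block on the first title number, within range or over all libraries, gave 4 members for MEHP + ATRA against ATRA (main 2), 7 and 7 for MEHP (main 6), 11 and 11 for ATRA (main 10) and 16 and 22 for MEHP + ATRA (main 16). It ended the calls of Slc25a1 with ATRA (both blocks) and of Slc25a20 and Slc25a10 with MEHP + ATRA (within range), and Slc25a1, Slc25a10, Slc25a4 and Slc25a31 each passed in a comparison where they had not. Same-numbered libraries deviated together more often than others, but not in every pair. Matched libraries alone could not give the interaction or MEHP + ATRA against MEHP, and the block within range could not give the range contrast. Depth limits Slc25a34, Slc25a48 and Slc25a21, and 3 members were too low to test.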
